A study of Homo sapiens with 4 samples.

Results

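Histone genes were taken as the protein-coding genes whose present symbol begins with H1-, H2A, H2B, H3-, H3C, H4C or H4-. GENCODE release 44 on GRCh38 held 93 such genes, and 87 of them had a row in the deposited count table of 58302 genes. A mean count of at least 10 over the 4 libraries left 40 genes, and all 40 were among the 16181 genes tested. By their names, 31 of the 40 are replication-dependent genes (H2AC, H2BC, H3C, H4C and the linker genes H1-2 to H1-5) and 9 are replacement genes. The choice used names and mean level, not the difference between groups.

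The cells were MIB1-iKO, a single-cell clone of NCI-H838, a line from a human lung cancer of the non-small-cell type. They carry a guide RNA against MIB1, which encodes the ubiquitin ligase Mind Bomb 1, and a Cas9 transgene on a piggyBac vector that doxycycline (dox) switches on. RNA was sequenced at day 3 from 2 samples without dox and 2 samples with 0.5 μg/mL dox, and all 4 carry the guide and the transgene. No sample received dox without the guide, so an effect of dox and an effect of losing MIB1 cannot be told apart here.

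The libraries held between 15943025 and 24398411 reads, with both dox libraries below both no dox libraries. The targeted gene MIB1 had 598 and 588 reads in the libraries without dox but 90 and 59 in those with dox (log2 fold change -2.58 ± 0.23, SE, adjusted p = 0.000375 by limma). The epithelial genes EPCAM and CDH1 were read in every library, whereas NKX2-1, SFTPB and KRT19 had 0 reads in all 4. NAPSA and MUC1, also on this list of lung and epithelial markers, had low counts in every library (2 to 8 and 4 to 17). The lung label was thus not visible in NKX2-1 and SFTPB, and neither NAPSA nor MUC1 was among the genes tested. From the same marker list, KRT8 and KRT18 were lower in both dox libraries (log2 fold changes -0.34 ± 0.11 and -0.41 ± 0.13, unadjusted p = 0.00956 and 0.00672, limma across all genes). KRT7 was higher in both (0.13 ± 0.12), while EPCAM and CDH1 overlapped between groups (0.13 ± 0.15 and 0.25 ± 0.17). Of the 5 markers on that list that were tested, 3 had a higher and 2 a lower value with dox. The 8 marker genes of other cell types summed to 2.01 to 5.34 CPM (counts scaled to a library total of 1000000 reads). Of all genes tested, 6 (0.0371%) were called, meaning that they reached both an adjusted p of 0.05 or less and a 2-fold change.

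Histones wrap DNA into nucleosomes, with H2A, H2B, H3 and H4 forming the core and H1 binding the linker DNA. Replication-dependent genes supply new chromatin in S phase, and their mRNAs usually end in a conserved stem-loop that is bound by the protein SLBP, in place of a poly(A) tail. Replacement genes are transcribed through the whole cell cycle, usually with introns and poly(A) tails, and their proteins, such as H2A.Z and H3.3, are exchanged into chromatin outside replication. Both library kits named in the study's methods start from poly(A) tails. Reads of a replication-dependent gene therefore count the transcripts such a kit captured and are no measure of all its mRNA in the cell.

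The stem-loop was searched, on the sense strand, by its 16-base consensus within 200 bases after the stop codon. It was found in 72 of 93 histone genes and in 1 of 19514 other protein-coding genes (0.00512%). All 31 tested replication-dependent genes carry it, at 25 to 63 bases after the stop codon, and among the 9 replacement genes only H2AX does. The following stem-loops belong to the genes the results turn on, namely the core histone gene of highest RPKM, the linker genes H1-2 and H1-5 that lay on opposite sides of 0, the H2B gene of largest fold and the exception among the replacement genes. Capitals mark the 16 bases of the stem-loop, and the sequence is that of the sense strand on GRCh38.
H4C3 (chr6:26104312-26104337, plus strand): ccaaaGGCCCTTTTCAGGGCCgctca
H1-2 (chr6:26055739-26055764, minus strand): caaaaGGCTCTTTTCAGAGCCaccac
H1-5 (chr6:27866792-27866817, minus strand): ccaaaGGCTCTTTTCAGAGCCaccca
H2BC7 (chr6:26199963-26199988, plus strand): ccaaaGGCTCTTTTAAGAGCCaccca
H2AX (chr11:119094893-119094918, minus strand): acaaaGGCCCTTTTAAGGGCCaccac
The 32 tested genes with a stem-loop held 6 different forms of the 16 bases. All 6 tested H4 genes begin with the stem arm GGCCC and the other 25 tested replication-dependent genes with GGCTC. H2AX shares the arm of the H4 genes. H1-2 and H1-5 have the same 16 bases and differ only in the flanks shown.

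No histone gene was called in the comparison of dox with no dox, where 0.0371% of all genes were. At an unadjusted p below 0.05, 3 of the 40 were lower with dox (H1-5, H1-3 and H2AZ1), beside 4.59% of all genes tested. Another 3 were higher (H1-2, H2BC12 and H2BC7), beside 4.68% of all genes. The lowest adjusted p of any histone gene was 0.305, for H1-5 (limma). The quasi-likelihood test of edgeR and DESeq2 called none either, with 2 lower and 3 higher at an unadjusted p below 0.05 in edgeR and 3 lower and 2 higher in DESeq2. The groups did not overlap in CPM for 10 genes lower and 10 genes higher with dox, where 17.4% and 18.7% of all genes tested did so. Leaving out 1 library at a time left 0 to 4 genes lower and 0 to 5 higher at an unadjusted p below 0.05, and none in either direction without no dox replicate 1. The fold changes of 39 of the 40 are shown in the plot of histone genes by class.

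**Figure D1:**
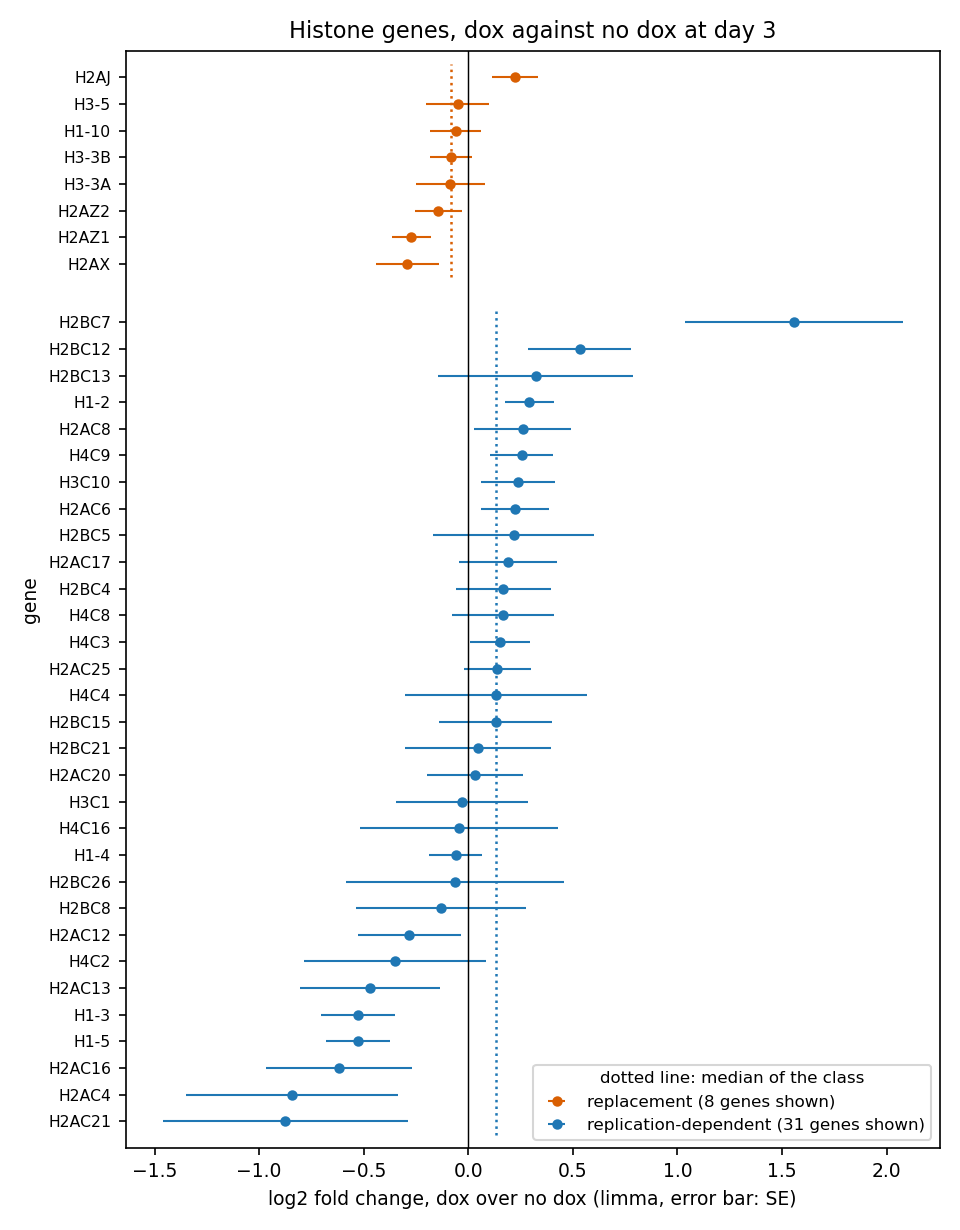
Log2 fold change of dox over no dox (x axis) for 39 of the 40 histone genes tested (y axis), with the SE of the limma fit as error bar and the median of all tested genes of each class as a dotted line. H1-5, H1-3 and H2AZ1 stand below 0 and H2BC7, H2BC12 and H1-2 above 0 at an unadjusted p below 0.05 (limma). Other genes, such as H2AX, H2AC16 and H2AJ, also clear 0 by more than their error bars. No gene shown passed the adjusted threshold.

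Linker genes made up 3 of the 6 histone genes at an unadjusted p below 0.05, and they did not all lie on the same side. H1-5 (chromosome 6, 27866792 to 27867588) had 93.4 and 84.5 CPM without dox and 69.9 and 53.5 with dox, so both dox libraries were lower. The log2 fold change of H1-5 was -0.53 ± 0.15 (SE, adjusted p = 0.305, limma), and leaving out any library kept it between -0.78 and -0.27. H1-3 (chromosome 6, 26234212 to 26234987) had 19.1 and 18.2 CPM without dox and 14.1 and 11.8 with dox. Its log2 fold change was -0.53 ± 0.18 (adjusted p = 0.363, limma), again with no overlap, and leaving out 1 library moved it between -0.72 and -0.32.

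H1-2 (chromosome 6, 26055740 to 26056470), the linker gene with the most reads, lay above 0 instead. It had 145 and 137 CPM without dox and 189 and 161 with dox. Its log2 fold change was 0.29 ± 0.12 (adjusted p = 0.463, limma), and without dox replicate 1 it was 0.16. H1-4 had 99.4, 99.2, 102 and 87.5 CPM in no dox replicates 1 and 2 and dox replicates 1 and 2, and these groups overlapped (log2 fold change -0.06 ± 0.13). The replacement linker gene H1-10 also overlapped between groups, with a log2 fold change of -0.06 ± 0.12. H1-1 had 0 reads in every library.

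Set against the other linker genes of the same library, H1-2 and H1-5 differed between groups by more than the replicates of a group differed. H1-2 made up 39.99% and 39.36% of the summed RPKM (the deposited values, which correct for gene length and depth) of the 5 linker genes H1-2 to H1-5 and H1-10 without dox, and 49.9% and 49.5% with dox, or 39.7% ± 0.45 against 49.7% ± 0.28 (SD, n = 2). H1-5 made up 24.4% and 22.9% without dox, and 17.4% and 15.5% with dox, or 23.6% ± 1.02 against 16.4% ± 1.37 (SD, n = 2). A share within a library does not depend on the scaling of that library. For every read of H1-5 there were 1.55 and 1.62 reads of H1-2 without dox, and 2.70 and 3.02 reads of H1-2 with dox. H1-4 made up 23.4% and 24.3% of the summed RPKM of these 5 without dox and 22.9% and 22.8% with dox. H1-3 made up 5.08% and 5.04% without dox and 3.59% and 3.50% with dox. Both shares were thus lower in both dox libraries, while that of H1-10 overlapped between groups. H1-2 and H1-5 were singled out after their values were seen, and the shares carry no test.

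**Figure D2:**
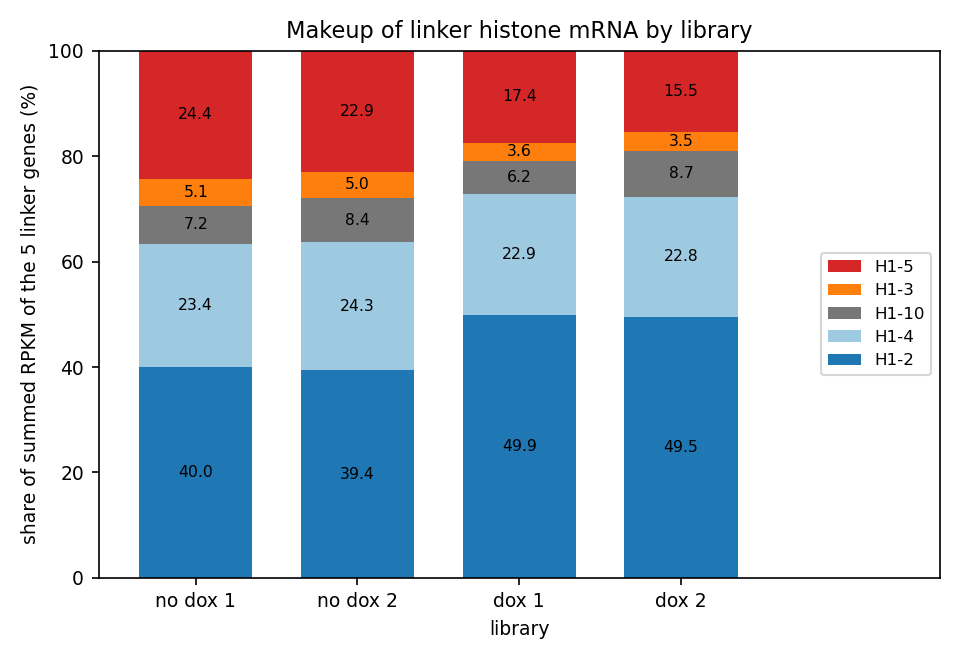
Share of each of the 5 linker genes H1-2 to H1-5 and H1-10 in their summed RPKM (y axis, percent) in each library (x axis). The H1-2 segment is larger in both dox libraries (49.9% and 49.5%) than in both no dox libraries (39.99% and 39.36%), and the H1-5 segment is smaller (17.4% and 15.5% against 24.4% and 22.9%).

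The promoters of these linker genes are shown because H1-2 lay on the other side of 0 from H1-3 and H1-5. In the RefSeq promoter table (GRCh38.p14), 36 of the 40 members had an entry, and H2AC12, H3-5 and H4C3 were among those with none. The 250 bases before the start were searched on both strands for the CCAAT box, for TATAA and for the octamer ATTTGCAT. The H1 box AAACACA, a motif known from H1 promoters, was added after the data were seen. The 130 bases next to the start follow, read 5′ to 3′ on the strand of the gene, with plus-strand matches in capitals.
H1-2 (chr6:26056471-26056600, minus strand): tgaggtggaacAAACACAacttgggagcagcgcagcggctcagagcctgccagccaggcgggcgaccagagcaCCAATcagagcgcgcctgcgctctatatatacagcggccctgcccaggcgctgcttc
H1-3 (chr6:26234988-26235117, minus strand): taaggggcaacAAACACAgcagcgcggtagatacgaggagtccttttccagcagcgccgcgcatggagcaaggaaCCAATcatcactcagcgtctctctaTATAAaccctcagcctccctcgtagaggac
H1-4 (chr6:26156199-26156328, plus strand): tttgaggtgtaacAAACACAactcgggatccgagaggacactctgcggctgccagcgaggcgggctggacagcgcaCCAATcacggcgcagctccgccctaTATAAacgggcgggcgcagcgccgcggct
H1-5 (chr6:27867589-27867718, minus strand): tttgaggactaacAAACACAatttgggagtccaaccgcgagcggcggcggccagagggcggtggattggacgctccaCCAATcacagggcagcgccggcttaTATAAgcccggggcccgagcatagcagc
AAACACA begins 117 to 119 bases and CCAAT 53 to 57 bases before the start in all 4 genes. TATAA begins 28 to 30 bases before it in H1-3, H1-4 and H1-5, and those exact letters are not in the H1-2 window. Between CCAAT and the start, the H1-2 window holds tatatata, which a search for the exact letters TATAA misses. The search therefore does not show that H1-2 lacks an element of this kind. All 4 genes thus hold AAACACA, which 4.95% of all 27305 promoters in the table hold, and none of the other 25 searched promoters of tested replication-dependent genes does.

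The same search covered the promoters of the other histone families. CCAAT was present in 25 of 29 promoters of tested replication-dependent genes and in 33.0% of all promoters, and the 4 without it are H4 genes. TATAA was present in 26 of the 29 and in 19.6% of all promoters. The octamer, read by POU2F1 in H2B promoters, was present in 7 of 9 H2A and 5 of 9 H2B promoters, in no H1, H3 or H4 promoter of the tested replication-dependent genes, and in 1.66% of all promoters. Of the 7 searched promoters of tested replacement genes, 6 held CCAAT, 4 held TATAA and 1 held the octamer, so these letters are not particular to the replication-dependent class. None of these motifs contains another, and a match is a description of letters only.

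Among the H2A genes, the replacement gene H2AZ1 (chromosome 4, 99948086 to 99950355) had the most reads. It encodes H2A.Z, which is placed at the nucleosomes beside active promoters. It had 885 and 909 CPM without dox and 750 and 727 with dox, so the groups did not overlap, and its log2 fold change was -0.27 ± 0.09 (adjusted p = 0.366, limma). Its exons overlap those of H2AZ1-DT, and reads of the pair cannot be told apart if strand was not used. H2AZ2, the other H2A.Z gene, had 108, 106, 89.6 and 102 CPM, also without overlap, and a log2 fold change of -0.14 ± 0.11.

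H2AX, the variant phosphorylated at DNA breaks, had 29.3 and 32.8 CPM without dox and 26.8 and 23.5 with dox. Its log2 fold change was -0.29 ± 0.15 (adjusted p = 0.591, limma), and leaving out 1 library moved it between -0.47 and -0.11. H2AJ, a replacement gene known from senescent fibroblasts, was the only H2A replacement gene in the other direction, with 123 and 122 CPM without dox and 142 in each dox library. The log2 fold change of H2AJ was 0.22 ± 0.11 (adjusted p = 0.563, limma). In the summed RPKM of the tested H2A genes, H2AZ1 held 69.3% and 71.1% without dox and 63.9% and 65.2% with dox. H2AJ held 14.6% and 14.5% without dox and 18.4% and 19.4% with dox. The 4 replacement genes together held 85.3% to 88.9% of H2A RPKM, with overlapping groups. By reads they held 90.7% and 92.2% without dox and 88.9% and 90.5% with dox, without overlap.

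**Figure D3:**
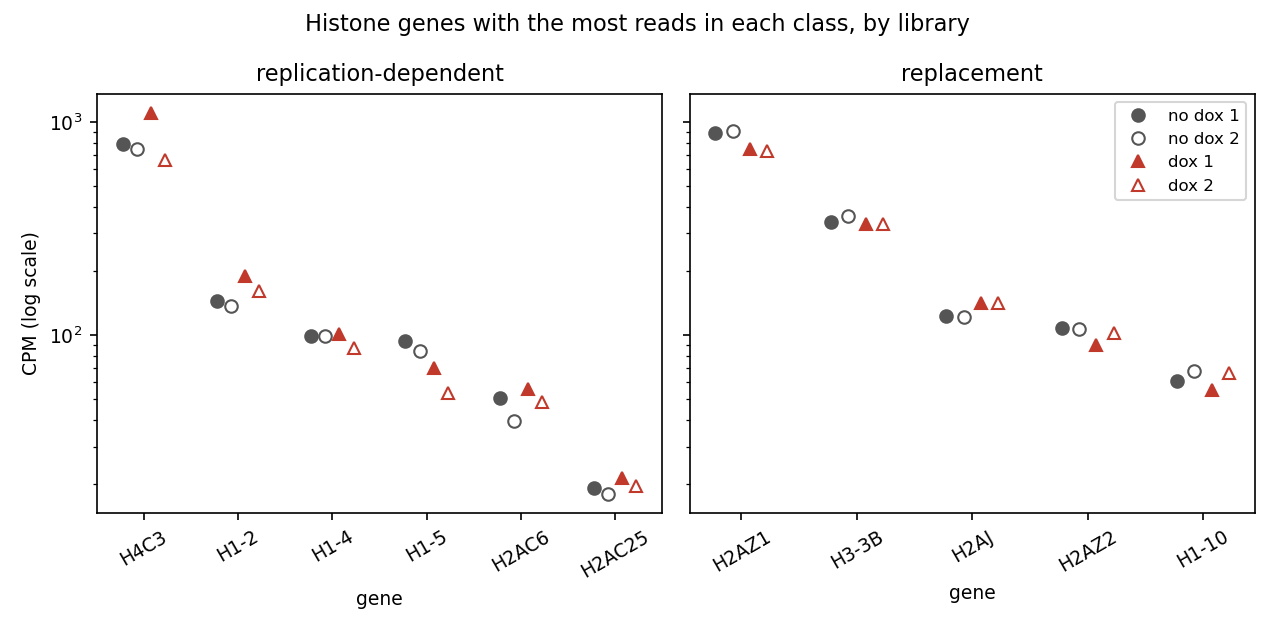
CPM (y axis, log scale) in each of the 4 libraries for the 6 replication-dependent genes of highest mean count and 5 of the 6 such replacement genes (x axis), circles for no dox and triangles for dox, with replicate 2 open. H2AZ1, H1-5, H2AZ2 and H3-3B are lower in both dox libraries and H1-2, H2AJ and H2AC25 higher in both. H4C3 is high in dox replicate 1 alone.

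The 10 tested replication-dependent H2A genes had a median log2 fold change of -0.12, with 5 higher and 5 lower. H2AC6 was the most abundant by reads, with 50.7 and 39.6 CPM without dox and 55.7 and 48.7 with dox, and its groups overlapped (log2 fold change 0.22 ± 0.16). H2AC12 had 20.0, 15.1, 18.7 and 11.1 CPM, lower in replicate 2 of each group, and a log2 fold change of -0.28 ± 0.25. H2AC8 reached 10.1 CPM in dox replicate 1 and lay between 6.84 and 7.09 in the other 3 libraries (log2 fold change 0.26 ± 0.23). H2AC25, outside the chromosome 6 clusters, had 19.2 and 18.1 CPM without dox and 21.4 and 19.6 with dox (log2 fold change 0.14 ± 0.16). H2AC13 and H2AC16 were lower in both dox libraries, with log2 fold changes of -0.47 ± 0.34 and -0.62 ± 0.35 on 20 to 58 reads, and only 36.5% of the 50-base windows of H2AC13 exons occur once in GRCh38. The lowest log2 fold changes of any member, -0.88 ± 0.59 for H2AC21 and -0.84 ± 0.51 for H2AC4, rest on 4 to 34 reads a library.

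The 9 tested H2B genes were all replication-dependent, and their highest level in any library was 5.58 CPM. Their median log2 fold change was 0.17, with 7 higher and 2 lower. H2BC7 had 6 and 7 reads in the libraries without dox but 14 and 17 in those with dox. This gave the largest log2 fold change of a member, 1.56 ± 0.52 (adjusted p = 0.362, limma). H2BC12 had 79 and 82 reads in the libraries without dox and 89 and 83 in the smaller dox libraries, or 3.24 and 3.87 against 5.58 and 4.87 CPM. The log2 fold change of H2BC12 was 0.53 ± 0.25 (adjusted p = 0.531, limma). Only 42.8% of the H2BC12 windows occur once in the genome, so some of its reads may belong to near-identical copies. For H2BC7, 99.8% of the windows occur once. In no dox replicate 1, however, H2BC7 had 0.246 CPM and 0.214 RPKM, and H2BC12 had 3.24 CPM and 8.82 RPKM. The exons searched hold a similar 473 and 495 bases, so they may not be the sequence counted for H2BC7. The other 7 had log2 fold changes from -0.13 (H2BC8) to 0.32 (H2BC13), each smaller than its SE.

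Of the tested H3 genes, the replacement gene H3-3B had the most reads. It encodes H3.3, and it had 340 and 363 CPM without dox and 332 in each dox library, with a log2 fold change of -0.08 ± 0.10. H3-3B held 73.1% to 75.2% of the summed RPKM of the tested H3 genes, and the 3 replacement genes together held 88.8% to 91.6%. H3-3A, which encodes the same protein, had 15.4 to 17.5 CPM, and H3-5, a gene copied from H3-3B, 20.4 to 21.3 (log2 fold changes -0.09 ± 0.17 and -0.05 ± 0.15). Only 76.7% of H3-3A windows and 81.5% of H3-5 windows occur once in the genome, so their split from H3-3B is uncertain, and the exons of H3-3B overlap those of UNK. Only 2 replication-dependent H3 genes reached a mean count of 10, H3C1 and H3C10, with log2 fold changes of -0.03 ± 0.32 and 0.24 ± 0.18. H3C2 and H3C3 had no row in the count table. Of the windows of H3C14 and H3C15 0% occur once, and of those of H3C13 27.9%. The H3 shares may therefore leave out reads of replication-dependent genes.

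Among the 6 tested H4 genes, the RPKM came almost wholly from a single gene in these libraries. H4C14 and H4C15 were not among the 6. For both, 0% of the 50-base windows occur once in the genome, so their reads may be missing from the counts. H4C3 (chromosome 6, 26103933 to 26104337) held 98.3% to 98.9% of the summed H4 RPKM of the 6 tested H4 genes, which encode the same H4 protein. By mean RPKM it ranked 16 among the 16181 genes tested, while H2AZ1 ranked 66, and 100% of its 50-base windows occur once in the genome. Its RPKM was 1874 and 1669 without dox and 2659 and 1436 with dox. The groups overlapped because dox replicate 1 stood above, and dox replicate 2 below, both no dox libraries. The log2 fold change of H4C3 was 0.15 ± 0.14 (adjusted p = 0.794, limma), and without dox replicate 1 it was -0.15. The other 5 H4 genes, H4C2, H4C4, H4C8, H4C9 and H4C16, had log2 fold changes from -0.35 to 0.26.

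Taken by class, the replication-dependent genes had a median log2 fold change of 0.13 over 31 genes, of which 18 were higher and 13 lower with dox. The replacement genes had a median of -0.08 over 9 genes, of which 2 were higher and 7 lower. The median of all 16181 genes was 0.00. The 2 class medians differed by 0.21, but without dox replicate 1 the replication-dependent median was -0.06 and the difference 0.04. Members are not replicates of a condition, and no p is given for the classes.

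Summed reads told the same about single libraries. The 31 replication-dependent genes had 1311 and 1245 CPM without dox and 1669 and 1150 with dox, so the no dox libraries lay between the dox libraries. H4C3 alone made up 57.8% to 66.3% of these reads, and without it the sums were 526, 495, 563 and 486. The 9 replacement genes had 1624 and 1684 CPM without dox and 1472 and 1477 with dox, without overlap. H2AZ1 held 49.2% to 54.5% of them, and without H2AZ1 the sums were 739, 775, 722 and 751 and overlapped. With 2 samples a group, an exact two-sided permutation test cannot go below p = 0.333, so none was made.

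**Figure D4:**
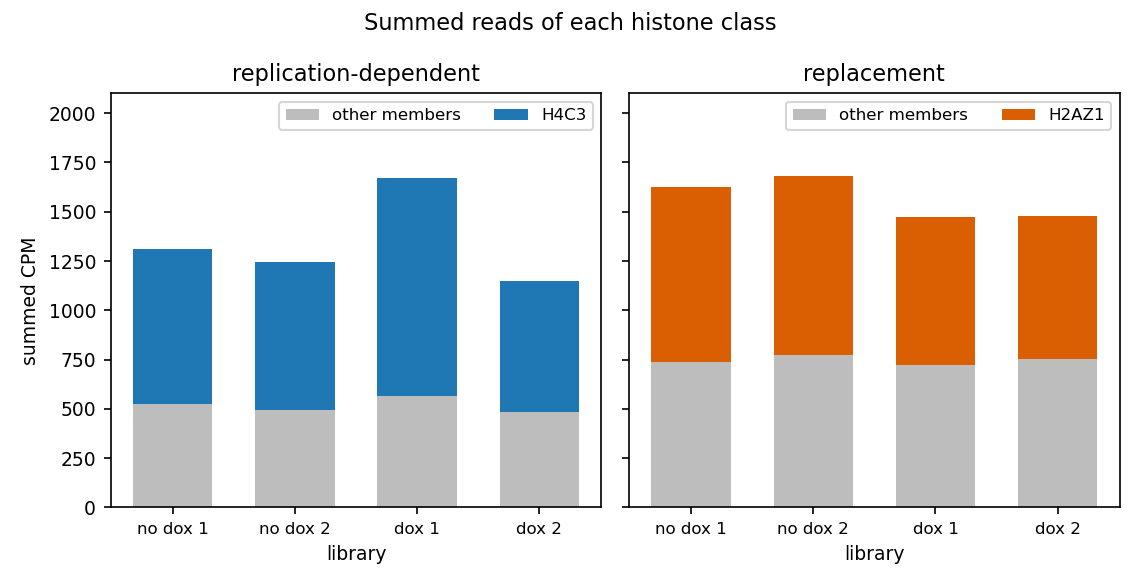
Summed CPM (y axis) of the 31 replication-dependent and the 9 replacement genes in each library (x axis), with the most abundant member of each class in colour. The replication-dependent sum is highest in dox replicate 1 (1669) and lowest in dox replicate 2 (1150), and the replacement sum is lower in both dox libraries (1472 and 1477) than in both no dox libraries.

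Genes whose RNA lacks a poly(A) tail were read beside the members as a measure of how much such RNA each library held. Leaving out MALAT1, the 22 such genes summed to 10.4 and 12.9 CPM without dox and 15.2 and 10.1 with dox. The highest sum was thus in dox replicate 1, the library with the highest H4C3 level. RN7SL2, the signal recognition particle RNA, was the largest part of each sum and was highest there (8.40 CPM against 4.96 to 5.75 elsewhere). It is therefore no second observation beside the sum. RNU4ATAC, the next by mean reads, was highest in no dox replicate 2 instead (2.45 CPM against 2.26 in dox replicate 1). RMRP, RPPH1 and RN7SK had 0 reads in every library. The part of such RNA in the H4C3 level was not tested.

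Of the 31 replication-dependent genes, 7 have the poly(A) signal AATAAA, on the sense strand, within 50 bases of an annotated transcript end, as 75.0% of other protein-coding genes do. These 7 had a median log2 fold change of 0.17 and the 24 without the signal 0.00. Most of the genes lie in the histone clusters on chromosome 6. The 15 in the first block by position, which holds H1-2, H1-3, H1-4 and H4C3, had a median of 0.15. The 10 in the later block, which holds H1-5, had 0.16, and the 6 on other chromosomes had -0.01. H1-3 and H1-5, which were both lower with dox, thus lie in different blocks, and H1-3 lies in the block of H1-2.

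The factors that make and store histones were read from lists typed from textbook knowledge. Of 20 S-phase genes, 19 had a lower value with dox (median log2 fold change -0.37), and 13 were at an unadjusted p below 0.05, all lower, beside 4.59% of all genes tested. The 3 lowest were MCM3 and GINS2 at -0.64 and MCM5 at -0.55, all subunits of the replicative helicase or its GINS partner. PCNA, the sliding clamp, had 549 and 485 CPM without dox and 453 and 386 with dox. No S-phase gene passed the adjusted threshold, and the lowest adjusted p was 0.126 (limma). Leaving out any library left 17 to 19 of the 20 lower, and 7 to 10 at an unadjusted p below 0.05.

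A list of 18 genes for histone chaperones and partner proteins tied to replication had a median log2 fold change of -0.20, and 16 were lower. The 6 at an unadjusted p below 0.05 (CHAF1A, CHAF1B, ASF1A, TONSL, MMS22L and MCM2) were all lower, beside 4.59% of all genes tested, and leaving out any library left 1 to 5 genes lower at that p, the fewest without no dox replicate 2. CHAF1A, the large subunit of chromatin assembly factor CAF-1, had 13.1 and 13.8 CPM without dox and 8.22 and 6.75 with dox. The log2 fold change of CHAF1A was -0.85 ± 0.20 (adjusted p = 0.174, limma), the lowest of any list gene. Its partner CHAF1B stood at -0.35, and the H3 and H4 carriers ASF1A and ASF1B both at -0.30. TONSL and MMS22L, partners that bind new histones behind the fork, stood at -0.45 and -0.42, and MCM2, which is also on the S-phase list, at -0.40. Without dox replicate 1 the median was -0.10, with 13 of 18 lower.

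Chaperones of replacement histones had a median log2 fold change of -0.01 over 18 genes, with 9 higher, 9 lower and none at an unadjusted p below 0.05. HIRA and DAXX, which deposit H3.3, stood at -0.19 ± 0.26 and 0.06 ± 0.11, and ATRX, the partner of DAXX, at -0.06 ± 0.17. The variants outside the name rule were near 0 as well, with CENPA, the centromeric H3, at -0.15 ± 0.13 and MACROH2A1 at -0.02 ± 0.10.

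Factors of histone mRNA processing had a median of 0.00 over 18 genes. SLBP, the stem-loop binding protein, had 175 and 167 CPM without dox and 160 and 158 with dox, and a log2 fold change of -0.11 ± 0.11 (adjusted p = 0.804, limma). At an unadjusted p below 0.05, CSTF2T and CASP8AP2, both known from 3′ end cleavage, were lower (-0.58 ± 0.17 and -0.56 ± 0.16), and TUT7, a uridylyl transferase of mRNA decay, was higher (0.49 ± 0.15). Of 14 genes for histone gene transcription, none was at an unadjusted p below 0.05, and 7 did not overlap between groups, all lower with dox, as 17.4% of all genes tested were. NPAT, the coactivator of histone genes, had 10.9 and 11.7 CPM without dox and 7.15 and 10.4 with dox (log2 fold change -0.37 ± 0.19).

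**Figure D5:**
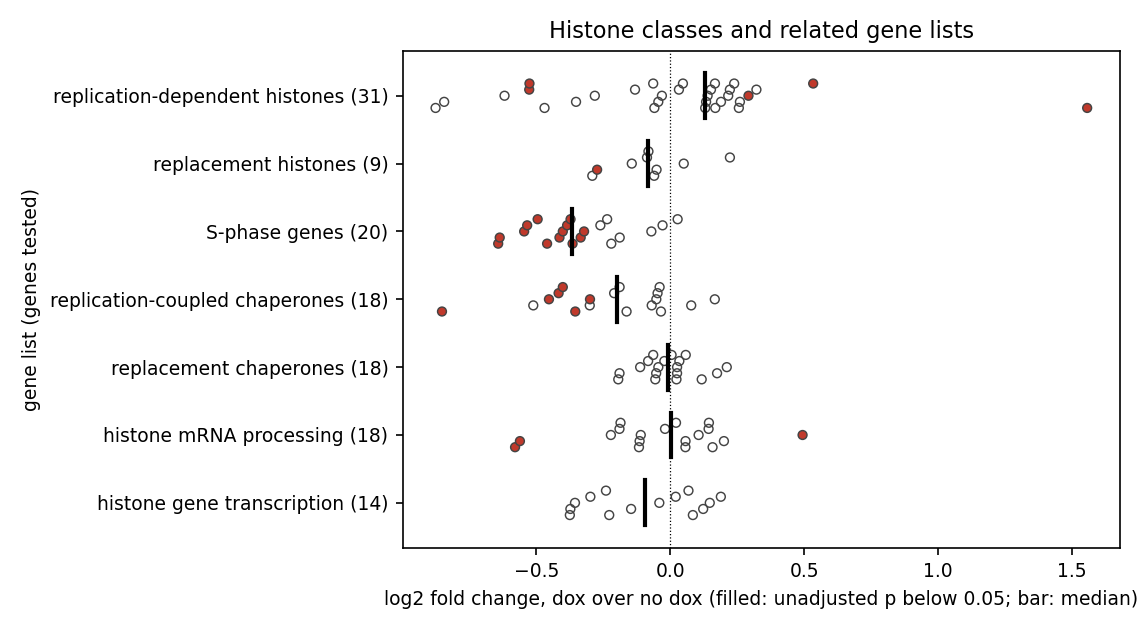
Log2 fold change of dox over no dox (x axis) for each tested gene of the 2 histone classes and 5 related lists (y axis, with the number tested), filled where the unadjusted p was below 0.05, with a bar at each median. The S-phase list lies below 0 apart from 1 gene (median -0.37), while the replication-dependent histones lie on both sides of 0 (median 0.13).

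The genes that were not tested are accounted for as follows. H2AC18, H2AC19, H3C2, H3C3, H2BK1 and H2BN1 had no row in the count table, and 47 genes with a row had a mean count below 10. Of these 47, 28 had 0 reads in every library, 16 replication-dependent and 12 replacement, which leaves room for up to 0.123 to 0.188 CPM (3 reads, counting error only). Among them were H2AB1, H2AB2, H2AB3, H1-6 and H1-7, known from testis. The limit does not hold where exons recur in the genome: 0% of the 50-base windows of H2AB2 and H2AB3 occur once, and 9.29% for H2AB1, 7.94% for H4C11 and 7.40% for H4C12. The share was also low for H3-7 (20.7%), H3C13 (27.9%) and H2AC14 (33.7%). Among genes with reads but a mean count below 10, it was 0% for H2BC12L, H3C14, H3C15, H4C14 and H4C15. The share at 0 reads was 32.2% of the 87 histone genes and 23.1% of all 19708 protein-coding genes in the table. The other 19 had between 1 and 11 reads in the libraries where they were seen, and H2BC6, with 10, 11, 6 and 10 reads, stood just under the limit, while H2BC7, with a mean of 11, stood just above it.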

How the data were processed

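RNA-seq of the 4 samples was analysed from the files the authors deposited: read counts per gene (whole numbers, not normalized) and RPKM, which carry a further scaling per library. Per the study's methods, single-end reads were aligned to GRCh38 with GSNAP and counted over exons with HTSeqGenie. The methods name 2 kits, 1 of them stranded, without saying which was used, and whether counting used strand is not given in the sources used here. The methods name a RefSeq annotation, while the identifiers are Ensembl. Symbols came from GENCODE release 44 and 57532 of 58302 identifiers matched.

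Genes passing filterByExpr were scaled by library total, brought to common quantiles and fitted with voom and limma 3.58.1 under R 4.3.3, with Benjamini-Hochberg adjustment of the p-values over those genes. The alternatives were edgeR 4.0.16, DESeq2 1.42.0, other scalings and filters, a replicate block, limma on RPKM at log2 after adding 0.1 or 1, and leaving out each library. The code was tested on simulated data. The paper calls the 2 replicates per condition of its RNA-seq after 3 days of dox biological. The labels do not say whether replicates came from separate cultures, so p-values measure the spread between these samples. Replicate numbers were not taken as pairs. The lowest chi-square per degree of freedom between any 2 libraries was 8.18. Fold changes with their SE were given to members at an unadjusted p below 0.05, to the 6 of highest mean count in each class and to the 3 highest and 3 lowest fold changes in each class among members with 50 or more reads on average. Outside this rule they were also given to H2AC4, H2AC13, H2AC16, H2AC21, H3-3A, H3C1 and H3C10. List genes were named from those at an unadjusted p below 0.05 or from preset names, apart from RN7SL2 and RNU4ATAC, which were named for their reads. 1 member is not reported here by itself and enters only counts, medians and sums. Members, lists and motifs were chosen with earlier results of these data known.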

Additional observations from a re-analysis of the deposited data

How the results depend on the processing

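No histone gene was called in the main comparison, in any of the 9 alternatives with a test (edgeR's quasi-likelihood test and DESeq2 among them) or without any 1 library. The 6 genes called over the whole series became 0 with no filter on low counts and 0 with limma on RPKM at either pseudocount, and the count was 0 without any 1 library. A replicate block, with the replicate number as a term in the fit, called 78 genes, and histone genes at an unadjusted p below 0.05 were then 4 lower and 6 higher against 3 and 3. In that fit 5 histone genes reached an adjusted p of 0.05 or less, beside 7.13% of all genes: H1-5, H1-3 and H2AZ1 lower, H1-2 and H2AJ higher, each under 2-fold. The numbers are not known to pair the samples (the deviations of same-numbered libraries correlated at 0.144, with only 2 pairs). MIB1 and the 18 histone genes picked by the naming rule (19 genes) kept their direction in every alternative with all 4 libraries that tested them, while H2BC8, outside the rule, turned from -0.13 to 0.019 with the block. Counts without 1 library were added after seeing the data, and the lone sample was assumed to vary like the other group. Without 1 library, histone genes at an unadjusted p below 0.05 numbered 0 to 4 lower and 0 to 5 higher. The replication-dependent median ranged from -0.064 to 0.17, the replacement median from -0.12 to -0.10, and the difference of the class medians from 0.036 to 0.27. The log2 ratio of summed reads ranged from -0.15 to 0.39 for replication-dependent and from -0.19 to -0.14 for replacement genes. Directions turned for 6 of the 19, with log2 fold changes from -0.14 to 0.016 (H1-10), -0.22 to 0.10 (H1-4), -0.71 to 0.17 (H2AC12), -0.073 to 0.61 (H2AC8), -0.13 to 0.028 (H3-5) and -0.15 to 0.45 (H4C3). The replication-dependent median was 0.056 and the difference 0.15 with log2(RPKM + 1), and that median was 0.098 with the replicate block. Without H2AZ1, the log2 ratio of the replacement sums was -0.040 (main value -0.17). Apart from the left-out library, gene or filter itself, the cause was not tested. Low reads limit the precision of many members, with H2AC21 at a mean of 12 reads and an SE of 0.59.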
